A study of Mus musculus with 3 samples.

Results

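The 10 genes described here are AP-1 subunits and other immediate early genes: Fos, Fosl1, Fosl2, Jun, Junb, Jund, Atf3, Egr1, Ier5 and Myc. They were chosen by name from the 52948 gene IDs of each file, with earlier results of these data known, and all 10 were found. All 10 passed an expression filter, a mean of at least 1 FPKM over the 3 libraries, that 12950 genes passed. FPKM, the deposited unit, counts fragments relative to gene length and library total. A comparison of levels between genes thus rests on the length taken for each gene. RNA sequencing had been done on αTC1-6 cells, mouse α cells of an islet tumour line that secretes glucagon, 16 h after infection with an adenovirus. The control virus carried β-galactosidase (β-Gal), and the others carried NIK or NIK(KA). Every group had thus been infected, and each held 1 library. NIK is the NF-κB-inducing kinase, the product of Map3k14. The labels do not say what KA stands for; in published work the name is used for a kinase-inactive mutant. The labels also give neither the dose of virus nor the promoter that drives the insert.

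AP-1 is a family of dimeric transcription factors that pair through a leucine zipper and bind DNA through an adjoining basic region. Jun proteins can pair with each other, whereas Fos proteins need a partner, usually a Jun protein. Immediate early genes answer growth factors, stress and cytokines within minutes, without new protein synthesis, and most make short-lived mRNA. In islet cells glucose, calcium entry and cAMP are known triggers. The samples were taken hours after infection, so they do not show an early peak of these genes.

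The β-Gal, NIK and NIK(KA) libraries held 18629668, 15523580 and 16652922 counted reads. Map3k14 was at 5.35, 8.42 and 12.1 FPKM in that order, above the control in both libraries labelled as overexpressing. Its level in NIK was 1.57-fold above β-Gal (1.31 to 1.89) and 1.43-fold below NIK(KA) (1.23 to 1.67). Whether these reads measure the insert was not tested. Of 8 α-cell markers 7 passed the filter, and their sum was lower in NIK, at 13830.5, 8024.6 and 11854.1 FPKM in the same order. Gcg, the glucagon gene, was at 12093, 6955 and 10197 FPKM, Ttr at 451, 238 and 399, and Slc38a5 at 430, 83.5 and 378. Of 9 markers of other islet cells, Ins1, Ins2, Pdx1, Sst and Ppy had 0 reads in each library. Only 2 of the 9 passed the filter, Nkx6-1 at 35.4, 29.6 and 41.7 FPKM and Ghrl with 38, 34 and 49 reads. The summed level of 6 leukocyte markers was between 0.292 and 0.401 FPKM, with 0 of 6 past the filter. Of 9 markers of stroma, endothelium, acinus and duct 2 passed, and the sums of the 9 were 6.47, 10.1 and 5.09 FPKM. The 2 went opposite ways in NIK, with Sox9 at 3.15, 8.69 and 2.63 FPKM and Col1a2 at 2.89, 0.760 and 1.71. The 6 heart muscle markers were high in β-Gal, with a sum of 32.4 FPKM against 1.39 in NIK and 1.48 in NIK(KA), whereas the liver markers Alb and Apoa2 were high in NIK(KA), with sums of 3.73, 3.09 and 12.4 FPKM. The part of these marker differences in the values below was not tested. With 1 library a group no p-value can be given. Brackets give exact 95% intervals of a ratio of reads, which cover counting error only.

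In cells with NIK, Ier5, Myc and Junb were more than 2-fold above the β-Gal library and Fosl2 more than 2-fold below it, so 3 members were higher and 1 was lower. Of all 12950 genes tested, 5.14% were higher and 1.48% lower by that rule, 6.63% in all. The members were chosen with earlier results of these data known, so the set of 10 cannot be tested against that share. The rule asks for a difference of at least 1 in log2(FPKM + 1). The other 6 members lay between -0.57 and 0.21 on that scale. The median difference of the 10 was -0.17, against -0.02 for all genes tested. In a bulk culture, a share of cells that respond and a change of RNA in every cell cannot be told apart.

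Ier5 encodes a regulator bound by the phosphatase PP2A, and it lies on chromosome 1 from 155096361 to 155099636 (GRCm38). Its level was 5.37 FPKM with β-Gal, 84.9 with NIK and 6.56 with NIK(KA), from 328, 4320 and 358 reads. NIK thus stood far above the other libraries, which lay close to each other. The ratio of NIK to β-Gal was 15.8 (14.1 to 17.7). Ier5 ranked 46 from the top among the differences of all 12950 genes.

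Junb encodes a Jun protein that activates less strongly than c-Jun at many promoters. The gene lies on chromosome 8 from 84974484 to 84978718. Junb had 21.0 FPKM with β-Gal, 143 with NIK and 25.0 with NIK(KA), from 450, 2556 and 480 reads. The NIK value was the high one again, 6.82 times β-Gal (6.16 to 7.55). Its exons overlap those of Prdx2, on the other strand, by 173 bases. Prdx2 was at 168, 199 and 178 FPKM. With no stated strand setting a part of these reads could have been counted for either gene, and Prdx2 differed far less between libraries than Junb.

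Myc, the growth-promoting basic helix-loop-helix factor on chromosome 15 from 61985391 to 61990374, was low in the control. Its level was 2.72 FPKM with β-Gal, 20.8 with NIK and 3.05 with NIK(KA), from 86, 547 and 86 reads. The ratio of NIK to β-Gal was 7.63 (6.07 to 9.70). On the log2(FPKM + 1) scale its difference of 2.55 was below the 2.71 of Junb, because the added 1 weighs more on a gene at 2.72 FPKM.

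Fosl2 encodes FRA-2, a Fos protein with no strong activation domain, and lies on chromosome 5 from 32135801 to 32157842. It had the highest level of the 10 in β-Gal, at 64.1 FPKM, against 26.1 with NIK and 58.9 with NIK(KA). The reads were 4661, 1582 and 3827. Here NIK was the low library, 2.46-fold below β-Gal (2.32 to 2.60).

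Of the 6 members within 2-fold of β-Gal, 5 had lower values in NIK, 3 of them with a counting interval below 1. Fos, the founding Fos gene, was at 6.98 FPKM with β-Gal, 4.37 with NIK and 7.15 with NIK(KA), from 142, 74 and 130 reads. NIK was low there, 1.60-fold below β-Gal (1.20 to 2.15). Egr1, a zinc-finger factor, had 1.61, 0.994 and 2.32 FPKM in that order, from 113, 58 and 145 reads. NIK was its low and NIK(KA) its high library, NIK being 1.62-fold below β-Gal (1.17 to 2.27). Jund, the Jun gene that is usually transcribed without stimulus, was at 12.7, 10.4 and 12.1 FPKM. NIK was 1.22-fold below β-Gal (1.04 to 1.43). Jun, which encodes c-Jun, was at 7.93, 7.25 and 10.6 FPKM. Its interval for NIK against β-Gal included 1, at a ratio of 0.915 (0.795 to 1.05). Atf3, a stress-induced partner of Jun proteins that often represses, was at 9.68, 8.07 and 9.85 FPKM. Its interval also included 1, narrowly, at 0.833 (0.687 to 1.01).

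Fosl1 encodes FRA-1 and was the exception in direction, at 1.92 FPKM with β-Gal, 2.38 with NIK and 1.65 with NIK(KA). These values rest on 61, 63 and 47 reads. The interval of NIK against β-Gal included 1, at 1.24 (0.858 to 1.79), so no difference was detectable at this depth. Fosl1 shares 1163 exonic bases with Ccdc85b on the other strand, a gene at 38.3, 46.4 and 41.8 FPKM, so its reads are uncertain. Jun and Jund also have antisense genes over them, Junos at 0.890 to 1.03 FPKM and Gm11175 at 0.

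Counting intervals excluded 1 for 7 of the 10 members in NIK against β-Gal, 3 above and 4 below. This share is not far from that of all genes, of which 55.0% had an interval that excludes 1, with 26.7% above and 28.3% below. NIK was the highest of the 3 libraries in 4 members and the lowest in the other 6. Of all genes tested, NIK was the highest in 37.2% and the lowest in 44.0%.

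**Figure D1:**
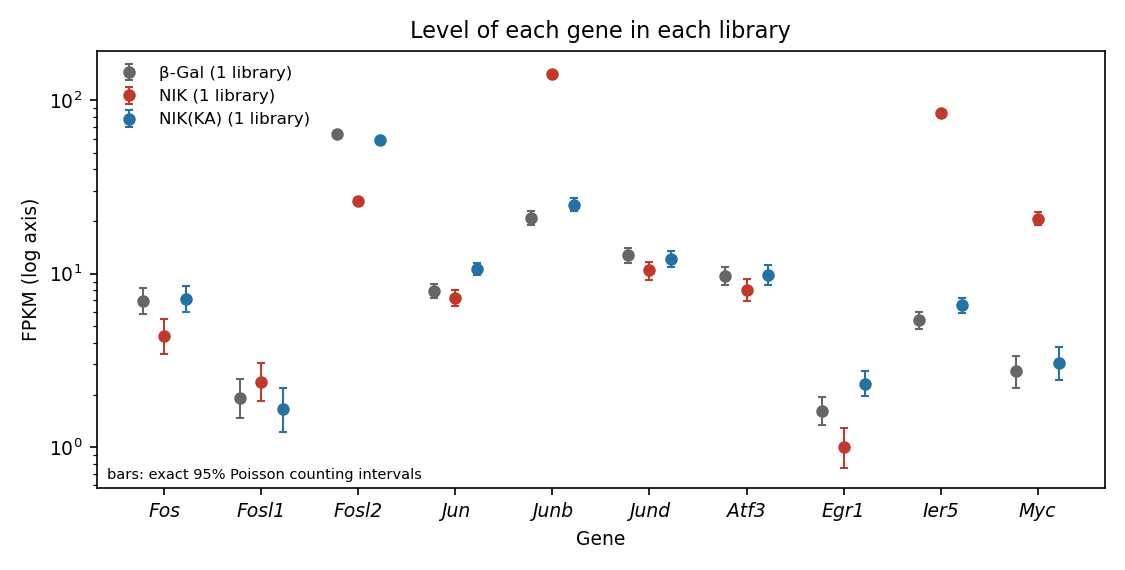
FPKM of the 10 genes (log axis) in the β-Gal, NIK and NIK(KA) libraries, 1 point per library, with exact 95% Poisson counting intervals. Junb, Ier5 and Myc stood above both other libraries in NIK and Fosl2 below them, while β-Gal and NIK(KA) lay near each other.

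Promoter sequences are shown for the genes past the 2-fold rule that had a window, and for Fos. Of the 10 genes, 7 had a window in RefSeq's table on GRCm38.p6, which runs from 250 bases before to 50 after the start. Myc, Fosl1 and Egr1 had none. RefSeq's Jund window ends at 70697788 on chromosome 8, before the gene's GENCODE start at 70698949, and its last bases were not found in a GENCODE Jund transcript, so it may not be the promoter of the gene as counted. The Fosl2 window lies inside the gene's GENCODE span, which starts at 32135801. The Atf3 window, at chr1:191183284-191183583 (minus strand), lies inside a span whose 5′ end is at 191218039. Neither window lies before the 5′ end of the gene as counted. Below are the 4 for the higher genes Ier5 and Junb, the lower gene Fosl2 and, as the classic immediate early promoter, Fos. They lie at chr1:155099587-155099886 (minus strand), chr8:84978699-84978998 (minus strand), chr5:32136222-32136521 (plus strand) and chr12:85473640-85473939 (plus strand). Each is written 5′ to 3′ on the gene's strand, and capitals mark matches to the κB motif or to TGACG, the core of the cAMP response element that ATF and CREB proteins bind.
Ier5: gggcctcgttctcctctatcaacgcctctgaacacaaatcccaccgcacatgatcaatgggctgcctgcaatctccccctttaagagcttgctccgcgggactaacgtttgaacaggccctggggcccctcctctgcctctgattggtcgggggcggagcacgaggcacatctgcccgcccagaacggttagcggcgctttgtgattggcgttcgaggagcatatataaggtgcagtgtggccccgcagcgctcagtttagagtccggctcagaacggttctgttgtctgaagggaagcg
Junb: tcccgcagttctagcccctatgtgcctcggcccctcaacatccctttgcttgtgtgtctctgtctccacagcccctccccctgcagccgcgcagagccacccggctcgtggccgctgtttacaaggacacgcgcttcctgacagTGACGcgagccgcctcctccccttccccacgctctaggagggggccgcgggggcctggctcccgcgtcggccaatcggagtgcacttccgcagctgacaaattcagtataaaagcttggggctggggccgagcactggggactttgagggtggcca
Fosl2: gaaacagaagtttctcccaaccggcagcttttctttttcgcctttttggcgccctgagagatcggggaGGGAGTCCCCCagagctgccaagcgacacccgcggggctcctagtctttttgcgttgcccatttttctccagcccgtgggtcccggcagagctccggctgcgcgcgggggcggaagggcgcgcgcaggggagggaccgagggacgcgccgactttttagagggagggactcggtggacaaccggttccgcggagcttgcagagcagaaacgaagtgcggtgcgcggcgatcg
Fos: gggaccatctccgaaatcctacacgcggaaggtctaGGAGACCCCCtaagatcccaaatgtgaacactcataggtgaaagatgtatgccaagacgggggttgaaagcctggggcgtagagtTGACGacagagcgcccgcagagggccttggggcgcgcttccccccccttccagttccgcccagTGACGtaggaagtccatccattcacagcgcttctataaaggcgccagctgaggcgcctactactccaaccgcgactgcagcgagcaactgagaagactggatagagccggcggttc

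The κB consensus was found in Fosl2 as overlapping matches from -182 to -172, counted from RefSeq's start, and in Fos from -214 to -205. The Fosl2 matches thus lie inside the gene's GENCODE span. It was in 8.46% of all 32817 windows and in 2 of the 7 here. Neither Ier5 nor Junb held it, which says only that these letters are not in those windows. TGACG stood in Junb from -106 to -102 and in Fos from -129 to -125 and from -66 to -62. It also stood in Atf3 from -7 to -3, and 20.8% of all windows hold it. The AP-1 motif TGANTCA (7.81% of windows), the full element TGACGTCA, which holds TGACG (1.79%), and the CArG box of serum response factor (1.63%) had no match in the 7 windows. The same was true of CACGTG, the E-box bound by MYC and MAX (7.15%), and of TTCCNGGAA (1.15%). For all of these, no match says only that the letters are not in the windows, and sequence further from the start was not searched. GCGNGGGCG, the EGR motif (5.56% of windows), stood in Fosl2 from -79 to -71 and overlaps a match to GGGCGG (35.6%). TATAAA (13.6%) stood in Fos from -33 to -28 and in Junb from 1 to 6. RefSeq's Junb start lies before the gene's GENCODE 5′ end at 84978718, so all Junb positions here would shift if counted from that end. The Junb TATAAA match lies before that end. Ier5 held CCAAT at -108 to -104 and -46 to -42, and Junb at -36 to -32. Among members within 2-fold in NIK it also stood in Jun at -65 to -61 and in Atf3 at 6 to 10, so 4 of the 7 windows held it, against 37.4% of all. All motifs were searched on both strands. A match describes letters and is not evidence of binding.

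The order of the members changed with NIK. In β-Gal the order by FPKM was Fosl2, Junb, Jund, Atf3, Jun, Fos, Ier5, Myc, Fosl1 and Egr1. Among neighbours in that order, Atf3 and Jun, Jun and Fos, Fos and Ier5, Myc and Fosl1, and Fosl1 and Egr1 had overlapping counting intervals. In NIK the order was Junb, Ier5, Fosl2, Myc, Jund, Atf3, Jun, Fos, Fosl1 and Egr1, and only Jund and Atf3, and Atf3 and Jun, overlapped. In NIK(KA) Fosl2, Junb and Jund led as in β-Gal. Against the 12950 genes tested together with Map3k14, Junb stood at the 54.2 percentile of levels in β-Gal and at the 93.6 percentile in NIK. Ier5 went from the 26.5 to the 87.3 percentile, and Fosl2 from the 82.0 to the 59.2 percentile.

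The makeup of AP-1 at the mRNA level was therefore set out by family, a sum chosen after the values were seen. Summed over Jun, Junb and Jund, the level was 41.7 FPKM with β-Gal, 161 with NIK and 47.8 with NIK(KA). Junb made up 50.4%, 89.0% and 52.4% of it. Jun and Jund together were at 20.7, 17.7 and 22.8 FPKM, so the higher sum in NIK lay in Junb. Summed over Fos, Fosb, Fosl1 and Fosl2, the level was 75.2, 34.2 and 71.1 FPKM in that order. Fosl2 made up 85.2%, 76.2% and 82.7% of that. Fosb, the fourth Fos gene, was at 2.23, 1.40 and 3.47 FPKM.

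Relative to β-Gal, the Jun sum in NIK was 3.86-fold higher and the Fos sum 2.20-fold lower. The ratio of Jun to Fos family FPKM was 0.554 with β-Gal, 4.69 with NIK and 0.672 with NIK(KA), so Fos mRNA was the larger pool in both other libraries and Jun mRNA in NIK. These ratios are taken within a library and do not depend on the scaling between libraries. They are of mRNA per length, not of protein, and they depend on the length taken for each gene. That length was 1092 bases for Fos, 1151 for Junb and 3905 for Fosl2.

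**Figure D2:**
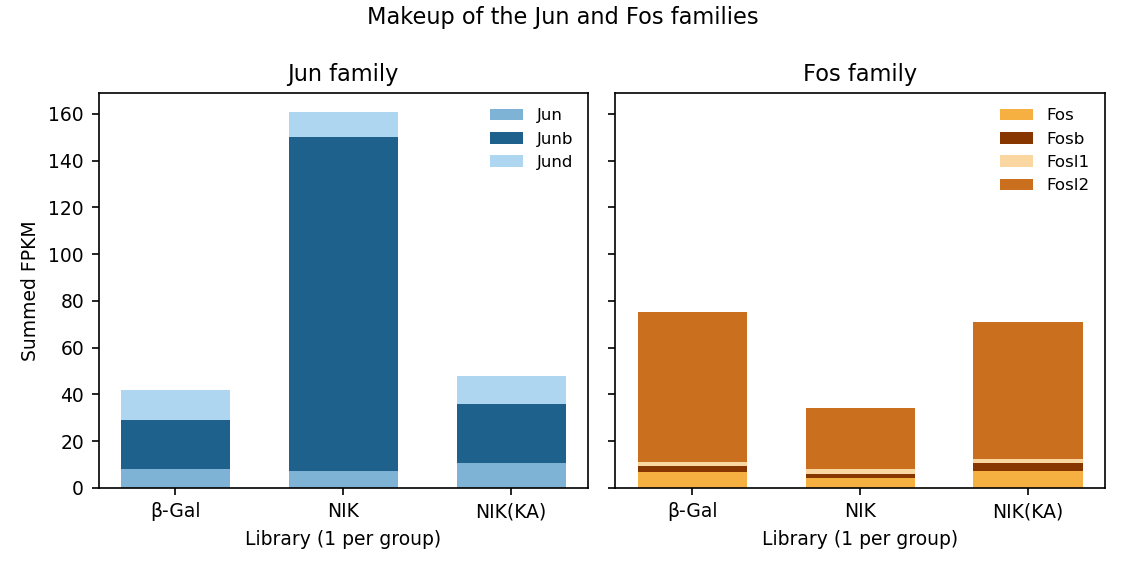
Summed FPKM of the Jun family (left) and the Fos family (right) in each library, 1 library per group, with each gene's share stacked from 0. In NIK the Jun sum was 161 FPKM, 89.0% of it Junb, and the Fos sum 34.2 FPKM.

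NIK(KA) was then set against β-Gal, the same control library as above. None of the 10 members passed the 2-fold rule, and 0.263% of all genes were higher and 0.417% lower, 0.680% in all. The differences ran from -0.14 to 0.38, with a median of 0.08 against 0.01 for all genes tested. Counting intervals excluded 1 for 5 members, 4 above and 1 below. The same held for 33.5% of all genes, 19.0% above and 14.5% below. Egr1 was at 2.32 FPKM in NIK(KA) and 1.61 in β-Gal, a ratio of 1.44 (1.11 to 1.85). Jun was at a ratio of 1.34 (1.19 to 1.52), Ier5 at 1.22 (1.05 to 1.42) and Junb at 1.19 (1.05 to 1.36). Fosl2 was 1.09-fold lower (1.04 to 1.14). The ratio of Myc was 1.12 (0.820 to 1.53), with 86 reads in each library. An interval that excludes 1 by so little shows only that counting error was exceeded, and the spread between cultures is unknown.

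With NIK(KA) as the reference in place of β-Gal, NIK had the same 4 members past the rule. Ier5 was 12.9-fold higher (11.6 to 14.5), Myc 6.82-fold (5.43 to 8.67) and Junb 5.71-fold (5.18 to 6.31). Fosl2 was 2.26-fold lower (2.13 to 2.39). Of all genes, 5.07% were higher and 1.10% lower, 6.17% in all. Both contrasts of NIK share the NIK library, so they are not independent.

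Egr1 had its widest gap in that comparison, with 0.994 FPKM in NIK and 2.32 in NIK(KA), 2.33-fold lower (1.71 to 3.22). Its difference on the log2(FPKM + 1) scale was -0.73 and passed the rule with a pseudocount of 0.1, at -1.14. Jun was 1.47-fold lower (1.28 to 1.68) and Fos 1.64-fold lower (1.22 to 2.21). In all, intervals excluded 1 for 8 members, 3 above and 5 below, against 55.2% of all genes, 24.6% above and 30.5% below.

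**Figure D3:**
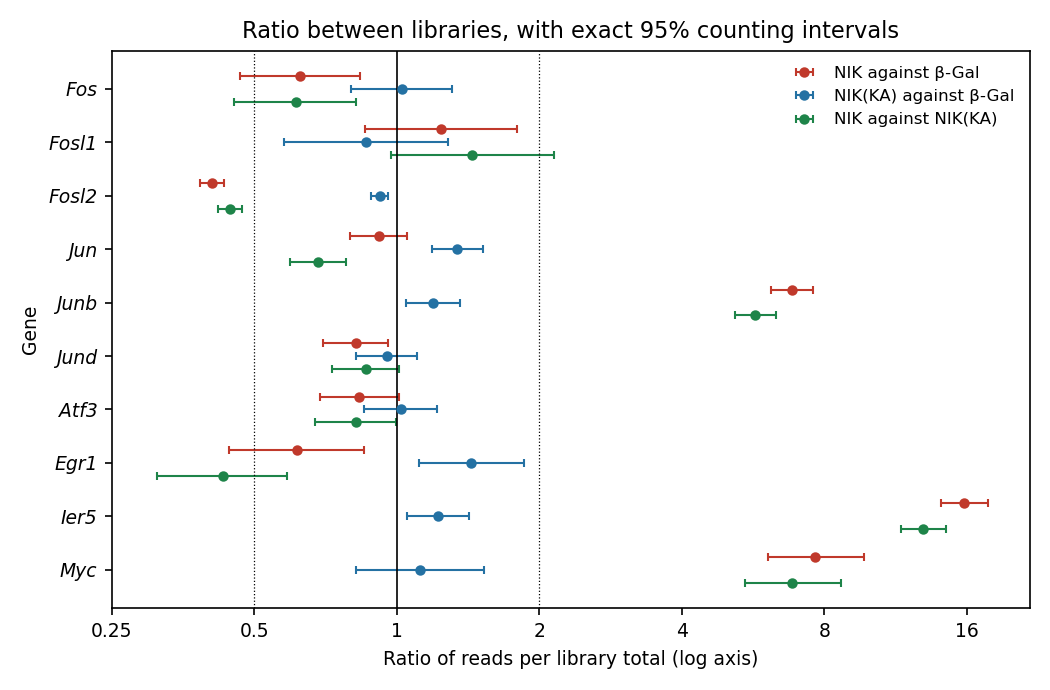
Ratio of reads per library total for the 10 genes in the 3 comparisons (log axis), with exact 95% counting intervals; dotted lines mark 2-fold. The NIK(KA) against β-Gal ratios lie between 0.862 and 1.44, and the NIK ratios of Junb, Ier5 and Myc lie at 5.71 and above in both comparisons.

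The member genes are short, as is common for immediate early genes. Their median span was 4610 bases and their median number of exons 3, against 24552 bases and 9 exons for 11150 protein-coding genes past the filter. Jun, Jund and Ier5 have a single exon, as do 1.82% of those genes. Ier5, high in NIK, spans 3276 bases and Jun, within 2-fold of β-Gal, 3189. Fosl2 spans 22042 and Atf3 47744 bases.

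Other genes that can pair with Jun proteins or act beside AP-1 were examined from a list of 18, of which 17 passed the filter. For each list that follows, the background in NIK against β-Gal is 5.14% of all genes higher and 1.48% lower. In NIK 3 were past the rule above β-Gal and 0 below it, with a median of 0.04. Batf, a partner of Jun proteins in lymphocytes, had 1, 51 and 0 reads in the β-Gal, NIK and NIK(KA) libraries, or 0.0721, 4.42 and 0 FPKM. The ratio of NIK to β-Gal was 61.2 (10.5 to 2464). Batf3, a gene of dendritic cells, was at 2.98, 8.63 and 3.90 FPKM. NIK was 2.90-fold above β-Gal (1.99 to 4.28), and Batf3 did not pass the rule against NIK(KA). Maff, a small MAF protein without an activation domain, was at 0.224, 4.06 and 0.407 FPKM. Batf and Maff passed the filter through the NIK library, so they had to be higher there, and the count of 3 supports nothing about the list. In the comparison of NIK(KA) with β-Gal, 0 genes of the list were past the rule.

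Among 35 other immediate early genes, 28 passed the filter, and in NIK 2 were higher than β-Gal and 1 lower. Their median was -0.26, with 16 intervals below 1 and 9 above, against 28.3% below and 26.7% above of all genes. Gadd45b, a stress gene that NF-κB is known to induce, was at 14.5, 73.9 and 14.0 FPKM in β-Gal, NIK and NIK(KA). Csrnp1, which encodes a nuclear protein, was at 4.30, 22.1 and 4.94 FPKM. The orphan nuclear receptor gene Nr4a1 was the lower gene, at 39.3, 18.5 and 39.0 FPKM, 2.13-fold below β-Gal (1.95 to 2.32). Against NIK(KA), where 5.07% of all genes were higher and 1.10% lower, 3 of the list were higher and 1 was lower, the third being Ier3, at 22.4 FPKM in NIK and 7.33 in NIK(KA). Ier3 was at 11.8 FPKM in β-Gal, so the control lay between. With NIK(KA) against β-Gal 0 genes passed and the median was -0.01.

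The kinases and factors that act on AP-1 showed few differences, with 2 of 28 genes higher than β-Gal in NIK, 0 lower and a median of 0.04. Map3k8 encodes TPL2, a kinase of the ERK pathway that is held by the NF-κB precursor p105. Its level was 2.25, 9.59 and 1.49 FPKM, with NIK 4.26-fold above β-Gal (3.29 to 5.57). Elk3, a partner of serum response factor, was at 1.27, 5.44 and 1.49 FPKM. The JNK genes Mapk8, Mapk9 and Mapk10 were at 18.2, 13.6 and 21.1 FPKM in β-Gal and at 18.5, 17.1 and 12.2 in NIK. Mapk10 was thus 1.73-fold lower in NIK (1.57 to 1.90) and Mapk9 was at a ratio of 1.26 (1.14 to 1.39), both within the rule. Of 13 MAPK phosphatase and Sprouty genes past the filter, 1 was lower and 0 higher, with a median of 0.03. That was Dusp5, which encodes a nuclear phosphatase of ERK, at 9.18, 3.83 and 10.2 FPKM. NIK was the low library, 2.40-fold below β-Gal (1.98 to 2.91).

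Of 13 genes of the MYC network past the filter, 1 was higher with NIK than with β-Gal and 0 were lower, with a median of -0.04. Zbtb17, which encodes the MYC partner MIZ1, was at 28.0, 62.0 and 36.1 FPKM and within the rule against NIK(KA). Max, the obligate partner of MYC, was at 112, 109 and 116 FPKM. Of 19 known MYC targets, 1 was higher and 1 lower, with a median of 0.05. Odc1, the first enzyme of polyamine synthesis, was at 552, 2988 and 587 FPKM, with NIK 5.41-fold above β-Gal (5.31 to 5.53). Ccnd2, a cyclin gene, was at 12.3, 5.07 and 9.86 FPKM. The nucleolar targets Ncl and Npm1 were at ratios of 1.21 (1.18 to 1.23) and 1.24 (1.20 to 1.27), short of the rule. Other nucleolar genes of the list did not share this, with Fbl at 1.05, Nop56 at 1.03, Nolc1 at 1.02 and Bop1 at 0.944, each with an interval that included 1, and Nop58 1.14-fold lower (1.10 to 1.18).

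Of 18 known AP-1 targets, 7 passed the filter. In NIK, 2 of the 7 were higher than β-Gal and 0 lower, with a median of 0.17. Mmp9, a gelatinase gene, had 0, 1151 and 15 reads in the same order of libraries. The collagenase gene Mmp13 had 8, 176 and 10 reads. A gene detected mainly in NIK passes the filter through that library, so these counts describe only the genes that passed. Ccnd1, a cyclin gene bound by AP-1, was at 2.93, 2.81 and 2.92 FPKM, and Vegfa at 292, 231 and 278.

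**Figure D4:**
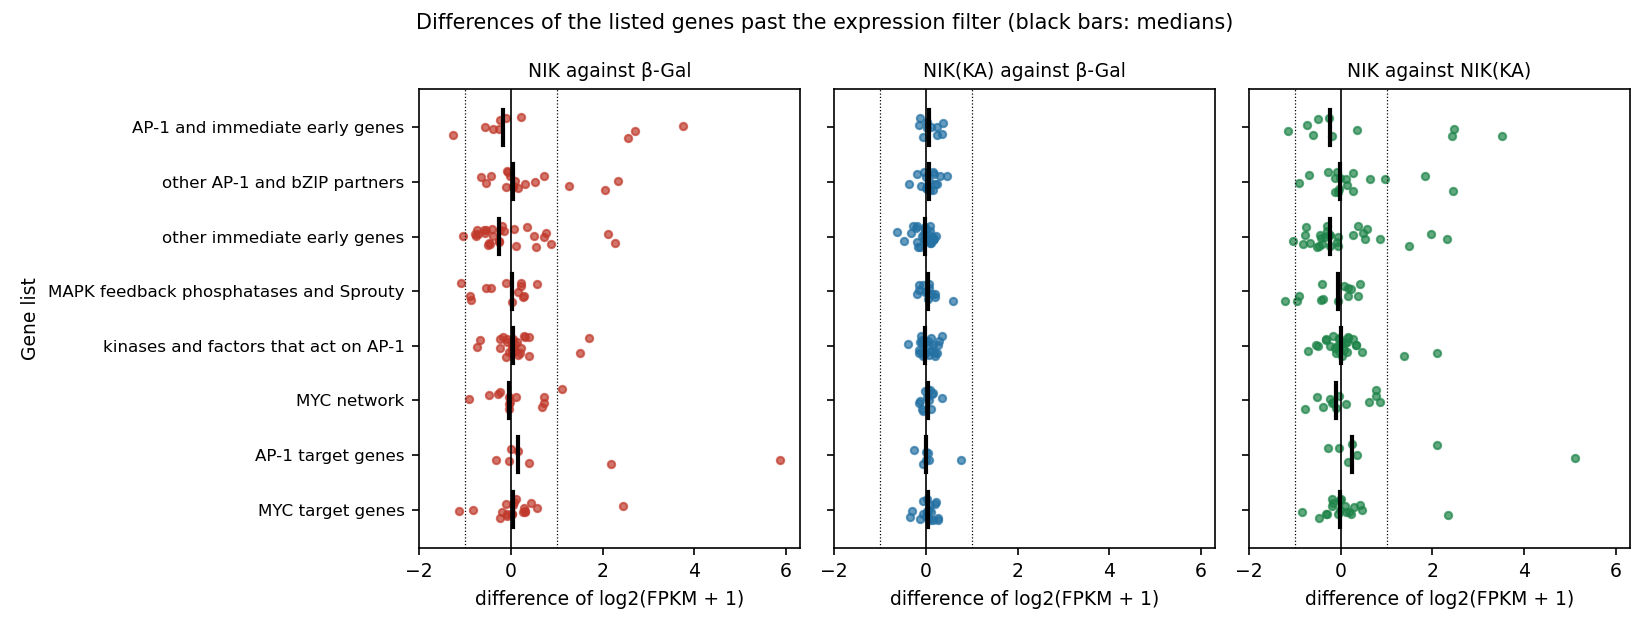
Differences of log2(FPKM + 1) for the 10 genes and 7 further lists, 1 point per gene past the filter, in the 3 comparisons; black bars are medians and dotted lines mark a difference of 1. The medians of NIK against β-Gal lie between -0.26 and 0.17, and every list holds at least 1 gene beyond 1 in either direction. No point of NIK(KA) against β-Gal lies beyond 1.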

How the data were processed

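RNA sequencing was done on 3 samples, 1 library a group. The deposited values are FPKM, made by the authors; TopHat2, HTSeq 0.6.1 and GRCm38 are named in the submitters' processing notes, without roles. Neither the strand setting nor the annotation or final program is given in the sources used here. Symbols and coordinates came from GENCODE M21 (GRCm38), which held 52489 of the 52948 IDs.

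Each gene's values are whole multiples of what 1 read is worth, which gave the library totals and, within 0.001 of a read, whole reads for the 26584 genes detected. These were used for exact 95% intervals (conditional binomial for ratios, Poisson for levels), which cover counting error only: PCR copies cannot be told from molecules here. Recovered reads summed to 18691002, 15570682 and 16709379 in β-Gal, NIK and NIK(KA), slightly above the library totals, so reads and totals do not match exactly. Closeness to whole reads does not fix a gene's read number, because the multiple was chosen nearest to its annotated length. Ratios do not depend on that multiple, whereas the widths of their intervals do. No count model was fitted. Read recovery, the 2-fold rule and the motif search were tested on simulated data.

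Levels were compared as log2(FPKM + 1), which understates the differences of low genes, and called at a difference of at least 1 among genes whose FPKM averaged at least 1 in the 3 libraries, without Map3k14. The members and the 7 further lists were chosen with earlier results of these data known. Named are all members, and up to 6 genes a list past the rule in a NIK comparison; Gapdh and Actb, as controls of scaling, had ratios of 1.00 (0.988 to 1.01) and 1.40 (1.35 to 1.45) in NIK against β-Gal. Fosb, Prdx2, Ccdc85b, Junos, Gm11175, Mapk8, Mapk9, Mapk10, Max, Ncl, Npm1, Fbl, Nop56, Nop58, Nolc1, Bop1, Ccnd1 and Vegfa were named after their values were seen. Alternatives changed the pseudocount, filter, scaling or fold. All 3 deposited columns were used. Python 3.11.15, pandas 2.3.3, numpy 2.4.6, scipy 1.17.1 and matplotlib 3.10.9 were used. A further α-cell marker is not reported here.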

Additional observations from a re-analysis of the deposited data

How the results depend on the processing

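The 4 members past the 2-fold rule in NIK against β-Gal (3 higher, 1 lower) stayed at that count with a pseudocount of 0.1 or 5, without a filter or with one at a mean of 5 FPKM, median-ratio, upper-quartile or TPM scaling, a 1.5-fold rule, and when the counting interval also had to exclude 1, which was added after the data were seen. NIK(KA) against β-Gal stayed at 0 under the same settings, where the share of all genes ran from 0.0541% with a pseudocount of 5 to 2.63% at 1.5-fold. NIK against NIK(KA) gave 4, but 5 with a pseudocount of 0.1, where Egr1 was added, and 6 with the 1.5-fold rule. The share of all genes in that comparison also rose, from 6.17% to 8.63% with a pseudocount of 0.1 and 14.9% at 1.5-fold. Over the 5 changes of pseudocount or scaling, the 10 members kept the sign of their difference in 50 of 50 values in both comparisons of NIK, and in 48 of 50 in NIK(KA) against β-Gal. The exceptions were Fos and Atf3 with upper-quartile scaling, at 0.00 and -0.01. The share of all genes past the rule in NIK against β-Gal ran from 2.15% with no filter to 15.8% at 1.5-fold. No paired analysis was possible because each group held 1 library, and leaving out a replicate was not possible for the same reason. The levels of Fos, Fosl1 and Egr1 rest on 47 to 145 reads a library, and those of Myc on 86 in β-Gal and in NIK(KA). This limits the differences that could be detected.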
